A study of Mus musculus with 33 samples.

Results

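Transcripts of 9 genes for proteins that the liver secretes into the blood were compared between 3 diets in mouse liver. The genes were Fgf21, Angptl4, Angptl6, Enho, Ahsg, Fetub, Lect2, Inhbe and Selenop, which the array platform lists under its older name Sepp1. They were taken by gene name, as hepatokines and angiopoietin-like proteins. The platform carries 13 probe sets for them among 45037, and all 9 were among the 9005 genes tested.

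Livers came from 33 male C57BL/6J mice aged 17 weeks, with 1 whole-genome Affymetrix mouse array each. All mice ate a purified research diet in which an added oil gave 7% of the energy, for 2 weeks, and all were fasted through the morning before death. The oil was sunflower oil with 81.3% oleic acid in the 10 control mice and in the 12 fenofibrate mice, whose diet also held 0.03% (w/w) of the drug. In the 11 fish oil mice it was Marinol C-38 fish oil, of which EPA made up 23.1% and DHA 21.1%. Values are log2 expression, so a difference of 1 is a doubling, and they are transcript levels: no plasma protein was measured. A gene counts as changed where limma gave a Benjamini-Hochberg adjusted p under 0.05 over all 9005 genes, and differences are given ± SE.

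Hepatokines are hormones and carrier proteins made mainly by hepatocytes that act on other organs. FGF21, the fasting hormone of the liver, and ANGPTL4, an inhibitor of lipoprotein lipase, are textbook targets of PPARα, the nuclear receptor that fenofibrate activates and that also binds fatty acids. Fgf21 is in addition transcribed under amino acid shortage and cell stress through ATF4, which binds amino acid response elements. The other members encode adropin (Enho), the fetuins (Ahsg and Fetub), the chemotaxin LECT2, the activin E subunit (Inhbe) and the selenium carrier selenoprotein P (Selenop).

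Promoter sequences are shown for 4 members because 2 of them share an element described for ATF4, and the others, Ahsg and Fetub, are neighbours on the chromosome that fell together. Each runs 5′ to 3′ over the 250 bases before the start given by RefSeq on mouse GRCm38.p6. Capitals mark TTGCATCA (the reverse complement of TGATGCAA, the core of the amino acid response element), the E-box CACGTG and the TATA box TATAAA. The Fgf21 window is chr7:45615491-45615740 on the minus strand, that of Inhbe chr10:127351849-127352098 on the minus strand, that of Ahsg chr16:22891765-22892014 on the plus strand, and that of Fetub chr16:22918132-22918381 on the plus strand.
Fgf21: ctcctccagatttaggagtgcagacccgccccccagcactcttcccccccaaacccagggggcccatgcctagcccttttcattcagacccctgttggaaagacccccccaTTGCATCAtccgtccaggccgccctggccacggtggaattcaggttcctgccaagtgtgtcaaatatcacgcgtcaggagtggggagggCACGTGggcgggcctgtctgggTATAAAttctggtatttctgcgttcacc
Inhbe: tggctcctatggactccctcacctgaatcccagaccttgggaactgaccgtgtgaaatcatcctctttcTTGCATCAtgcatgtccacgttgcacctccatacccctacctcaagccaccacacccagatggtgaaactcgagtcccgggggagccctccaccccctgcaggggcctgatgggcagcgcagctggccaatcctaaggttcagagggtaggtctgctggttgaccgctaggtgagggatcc
Ahsg: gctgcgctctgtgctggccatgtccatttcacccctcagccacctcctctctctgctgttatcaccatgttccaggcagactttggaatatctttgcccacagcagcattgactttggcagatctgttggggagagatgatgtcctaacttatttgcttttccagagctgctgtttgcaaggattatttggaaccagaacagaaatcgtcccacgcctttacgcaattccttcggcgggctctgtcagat
Fetub: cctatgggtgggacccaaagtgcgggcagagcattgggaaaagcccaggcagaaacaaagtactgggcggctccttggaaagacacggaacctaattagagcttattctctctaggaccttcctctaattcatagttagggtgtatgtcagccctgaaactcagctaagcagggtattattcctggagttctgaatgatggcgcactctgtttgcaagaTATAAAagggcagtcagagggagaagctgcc

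Counting back from the base before the start as -1, the response element core stood at -139 to -132 in Fgf21 and at -181 to -174 in Inhbe, in the same orientation. Fgf21 also had the E-box at -50 to -45 and the TATA box at -28 to -23, and the first of the Fetub windows had a TATA box at -31 to -26. Of 32851 mouse promoter windows of this length, read on both strands, 260 (0.791%) held TGATGCAA, 6.02% CACGTG and 12.4% TATAAA. The nuclear receptor half-site AGGTCA, found in 14% of windows, and its direct repeat AGGTCANAGGTCA, in 0.0335%, were in none of the windows of the members; every match of the repeat also holds the half-site. No windows were used for Enho and Angptl4. These matches describe letters in a short window and are not binding sites.

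Several arrays stood apart or shared features beyond diet. Control replicates 1, 2 and 9 had median deviations of -0.98, -0.46 and -0.5 from the control median over 15 clock genes, against -0.06 to 0.22 in the other controls. Replicates 1 and 2 also deviated by 0.63 and 0.73 over 23 acute phase genes (-0.1 to 0.06 in the controls other than these and replicate 9). Treated arrays stood apart too. Mean levels on fish oil reached 12.11 over the acute phase genes (median 10.79). Over the clock genes they went down to 7.75 on fish oil (median 8.46) and 7.73 on fenofibrate (median 8.25). Array weights were low for fish oil replicate 9 (0.326) and fenofibrate replicate 11 (0.4511), as for control replicates 1, 2 and 9 (0.2916, 0.379 and 0.4256). Leaving out control replicates 1, 2 and 9 thus trims the control group only. Among 16 pairs of arrays of one diet with consecutive numbers in their labels, deviations from the group means correlated at -0.172 to 0.418 (median 0.141), above 0.1 in 8 pairs. The model takes arrays as independent, and every call for a member given here was kept when such pairs entered it as a random block (estimated correlation 0.23). The array labels of 4 fenofibrate mice and 1 fish oil mouse have a suffix A that the labels do not explain. Since whole liver was measured, fewer cells of a type and less RNA per cell cannot be told apart.

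Fenofibrate lowered 4 of the 9 transcripts and raised none. Enho fell 9.14-fold, to dim values, Lect2 1.86-fold, Fetub 1.72-fold and Ahsg 1.4-fold. Among all genes tested 40.8% changed on fenofibrate, 18.9% lower and 22% higher. Fish oil lowered Lect2 1.52-fold and Fgf21, whose fish oil values were near background, by an amount these values do not settle. No other member passed on fish oil, where 14.5% of all genes changed, 7% lower and 7.53% higher. The groups did not overlap for Enho, Fetub and Ahsg on fenofibrate, a separation that 5.41% of genes showed, and for Fgf21 on fish oil, which 1.05% showed. Between the fenofibrate and fish oil arrays 7 members differed, Fgf21 higher and 6 lower on fenofibrate, and 38.9% of all genes differed, 19.8% higher and 19.1% lower on fenofibrate. In that comparison the groups did not overlap for Enho, Ahsg and Fetub, as for 6.34% of all genes. The median difference of the members was -0.33 on fenofibrate and -0.01 on fish oil, and over all genes it lay within 0.02 of 0 in each comparison. The 3 comparisons share their arrays and are not independent of each other.

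**Figure D1:**
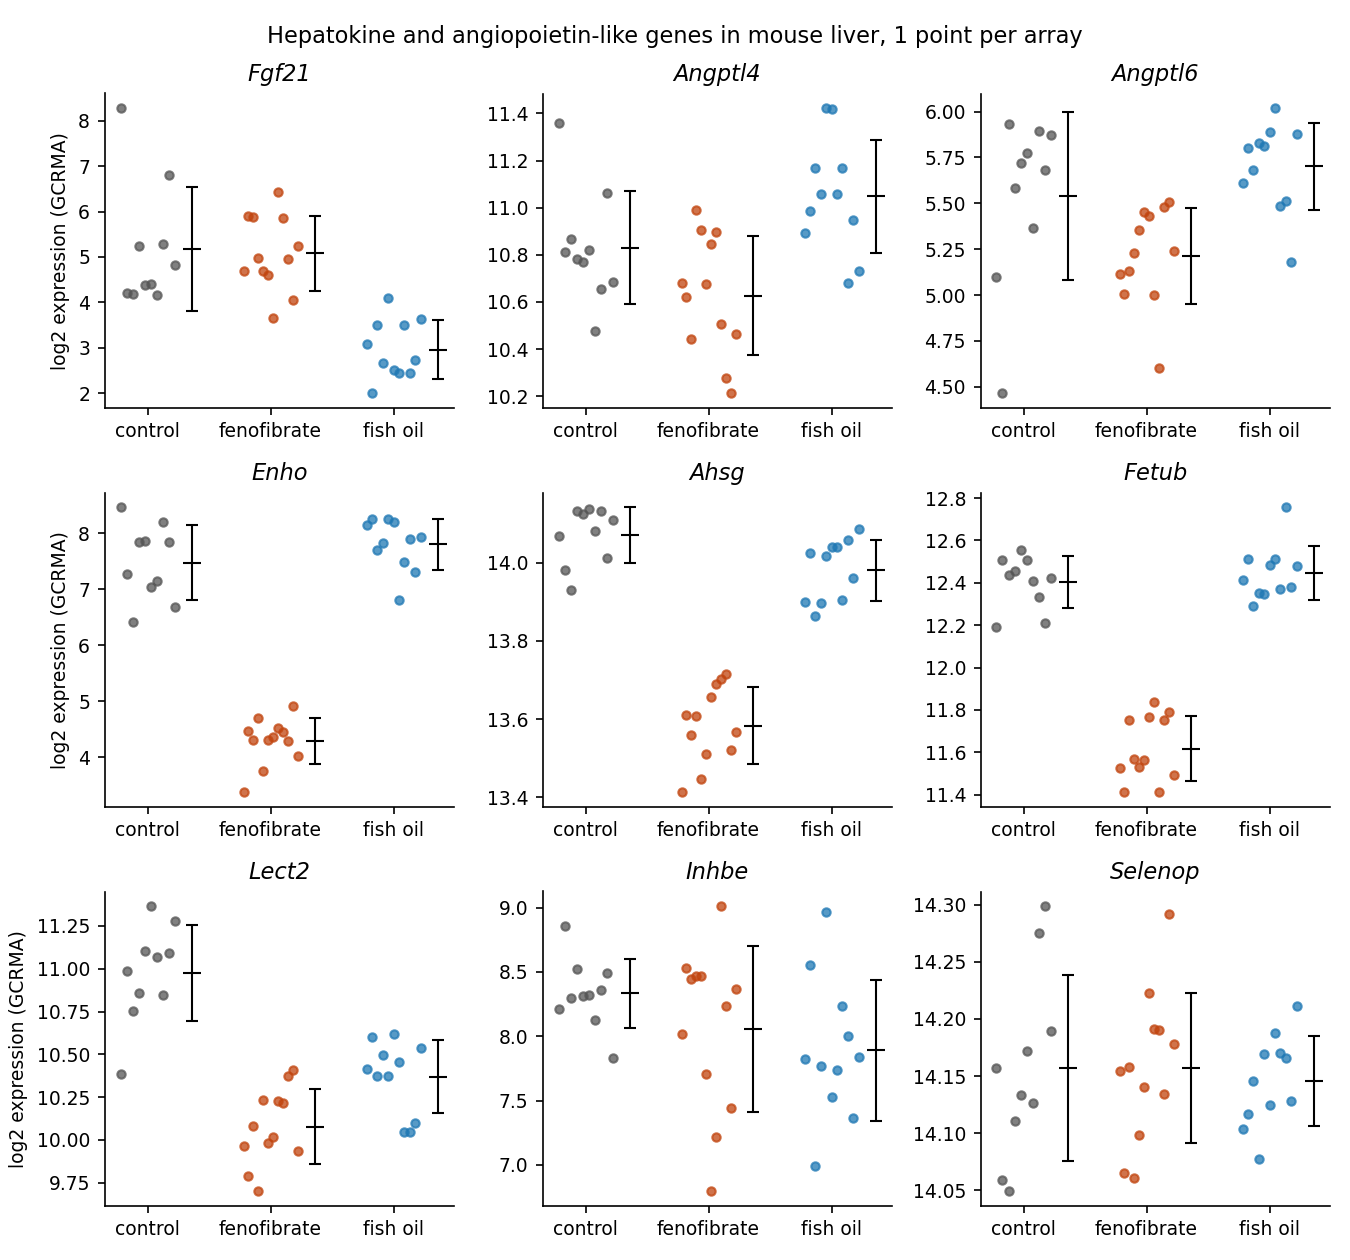
Log2 expression of the 9 genes on each array, by diet; the bar beside each group is the mean ± SD, and each panel has its own vertical scale. The fenofibrate arrays lie below all other arrays for Enho, Ahsg and Fetub, and the fish oil arrays lie below all control arrays for Fgf21.

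Fgf21, measured by probe set 1422916_at, ran from 4.15 to 8.29 in controls (median 4.61), from 3.65 to 6.44 on fenofibrate (median 4.97) and from 1.99 to 4.1 on fish oil (median 2.73). All 11 fish oil arrays were thus below every control, while the fenofibrate arrays covered the range of all but the highest controls. The control values were uneven: replicate 1 had 8.29 and replicate 9 had 6.81, and the others lay between 4.15 and 5.3.

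The fish oil mean of 2.96 lay within the range of the array medians over all probe sets (2.9 to 2.97), and 10 of the 11 fish oil arrays were under the filter level of 4, which Fgf21 passed through control and fenofibrate arrays. On these dim values Fgf21 fell on fish oil by 2.22 ± 0.41 (adjusted p = 0.000187, limma), a size that rests on values near background. With every value under 4 set to 4, a setting chosen after seeing the data, it fell by 1.17 (adjusted p = 0.0288). Without control replicates 1, 2 and 9 the fall was 1.68 (adjusted p = 0.00033).

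On fenofibrate Fgf21 did not pass the test. Its difference from control was -0.10 ± 0.40 (adjusted p = 0.868), with a 95% interval from -0.91 to 0.71 that holds changes in either direction. Of the 12 fenofibrate arrays 9 were above the control median, although the mean was lower. Without control replicates 1, 2 and 9 the difference was 0.44 (adjusted p = 0.276). Fenofibrate arrays exceeded fish oil arrays by 2.12 ± 0.39 (adjusted p = 4.5e-05), or by 1.1 with values under 4 set to 4 (adjusted p = 0.0128), and 10 of 12 were above every fish oil array.

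Angptl4, which blocks the hydrolysis of triglycerides by lipoprotein lipase, ran from 10.48 to 11.36 in controls (median 10.8), from 10.21 to 10.99 on fenofibrate (median 10.65) and from 10.68 to 11.42 on fish oil (median 11.06). The fish oil arrays tended to the top and the fenofibrate arrays to the bottom of a range that all 3 groups shared. The differences from control were -0.20 ± 0.10 on fenofibrate (95% interval -0.41 to 0.01, adjusted p = 0.116) and 0.22 ± 0.10 on fish oil (0.01 to 0.43, adjusted p = 0.17), and neither passed. Between the diets Angptl4 was lower on fenofibrate by 0.42 ± 0.10 (difference -0.42, adjusted p = 0.000999), and all 12 fenofibrate arrays were below the fish oil median. The fish oil difference from control passed without control replicates 1, 2 and 9 (0.33, adjusted p = 0.0345) and with array weights (0.3, adjusted p = 0.0175). It did not pass in the other 45 alternatives. Control replicates 1 and 9 held the highest control values, 11.36 and 11.06, as they did for Fgf21. Leaving them out thus lowers the control mean. The array weights also count these controls little, so these 2 passes are not independent of each other.

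Angptl6, also called angiopoietin-related growth factor, ran from 4.46 to 5.93 in controls (median 5.7), from 4.6 to 5.51 on fenofibrate (median 5.23) and from 5.18 to 6.02 on fish oil (median 5.8). All 12 fenofibrate arrays were below the control median, but control replicates 2 and 1, at 4.46 and 5.1, were low as well. The difference on fenofibrate was -0.33 ± 0.14 (adjusted p = 0.0532), just short of the threshold. Without control replicate 2 it was -0.44 (adjusted p = 0.00166), and without control replicates 1, 2 and 9 it was -0.52 (adjusted p = 0.000347). In 11 of 47 alternatives it passed, and its adjusted p ran up to 0.105 in the others. On fish oil the difference was 0.16 ± 0.14 (adjusted p = 0.483). Angptl6 was lower on fenofibrate than on fish oil by 0.49 (difference -0.49 ± 0.13, adjusted p = 0.00349).

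**Figure D2:**
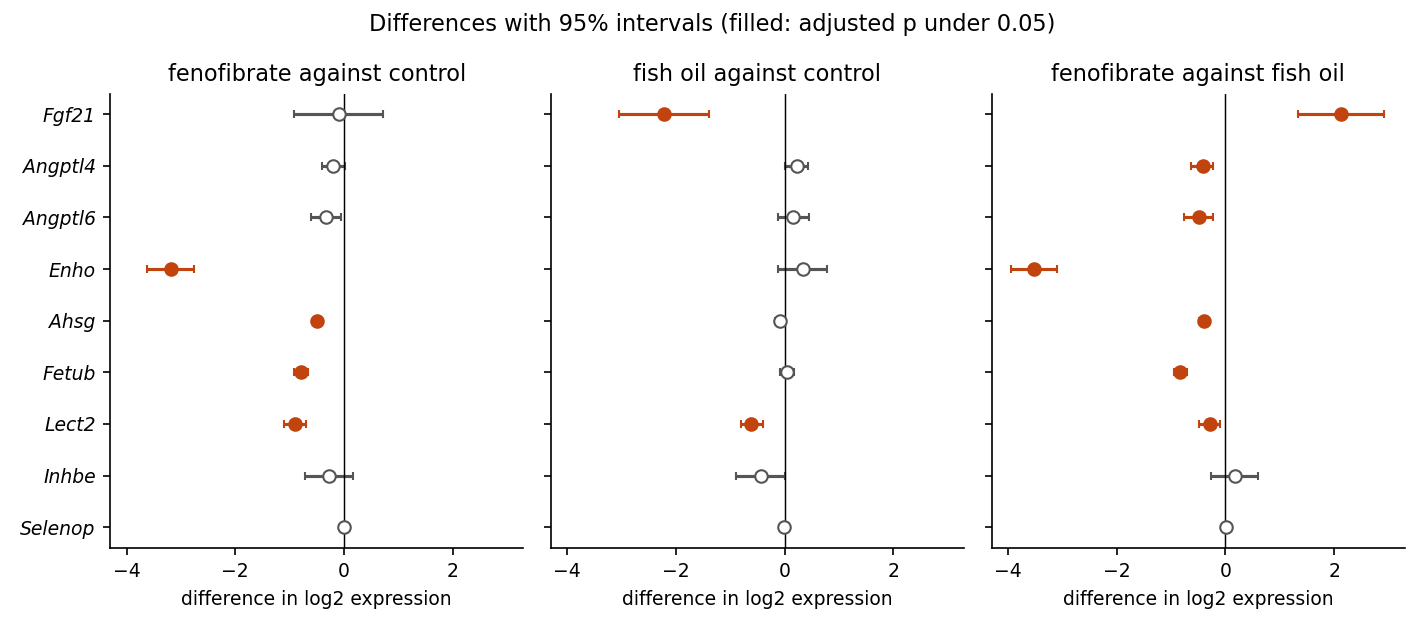
Differences between group means in log2 expression for the 9 genes in the 3 comparisons, with 95% intervals; filled points passed the test at an adjusted p under 0.05. Enho stands at -3.19 for fenofibrate against control and Fgf21 at -2.22 for fish oil against control, where its fish oil values are near background, and the interval of Fgf21 for fenofibrate reaches from -0.91 to 0.71.

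Enho encodes adropin, a small secreted peptide with described effects on fuel choice in muscle and liver. Its brightest probe set, 1428739_at, ran from 6.42 to 8.48 in controls (median 7.55), from 3.37 to 4.92 on fenofibrate (median 4.34) and from 6.8 to 8.27 on fish oil (median 7.91). Every fenofibrate array was below every array of the other diets. The difference from control was -3.19 ± 0.21 on fenofibrate (adjusted p = 6.78e-14), the 7th-lowest of the 9005 genes, and 0.33 ± 0.22 on fish oil (adjusted p = 0.348). Against fish oil, fenofibrate arrays were lower by 11.5-fold (difference -3.52 ± 0.21, adjusted p = 2.53e-15). The fenofibrate mean of 4.29 was close to the filter level of 4, and 2 arrays were under that level. The sizes of these falls thus rest on dim fenofibrate values. With values under 4 set to 4, a setting chosen after seeing the data, the difference from control was -3.12.

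Of the 4 probe sets of Enho, 3 were lower on fenofibrate in a fit of all 45037 probe sets, of which 15.4% changed. The second, 1452893_s_at, fell from 5.31 ± 0.79 (SD) to 2.12 ± 0.49, a difference of -3.19 ± 0.26. That fenofibrate mean lay under the array medians. The third, 1454585_at, reached 4 on no array and differed by -0.36 ± 0.08 (adjusted p = 0.000999736), and the fourth, 1433382_at, also reached 4 on no array and did not pass (0.07 ± 0.05). The other probe set of Angptl4, 1453410_at, reached 4 on no array and passed in no comparison. Over all 13 probe sets 6 changed on fenofibrate, 2 on fish oil, where 3.71% of all probe sets changed, and 9 between the diets, where 14.6% did.

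The fetuins are cystatin-related plasma glycoproteins: fetuin-A (Ahsg) binds calcium phosphate and inhibits the insulin receptor, and fetuin-B (Fetub) inhibits the egg-coat protease ovastacin. Ahsg ran from 13.93 to 14.14 in controls (median 14.09), from 13.41 to 13.72 on fenofibrate (median 13.59) and from 13.86 to 14.08 on fish oil (median 14.02). Fetub ran from 12.19 to 12.56 in controls (median 12.43), from 11.41 to 11.84 on fenofibrate (median 11.57) and from 12.29 to 12.76 on fish oil (median 12.41). For both genes the 12 fenofibrate arrays were below all others.

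The falls were small in fold but large against the spread. Ahsg fell by 0.49 ± 0.04 on fenofibrate (adjusted p = 1.63e-11) and Fetub by 0.79 ± 0.06 (adjusted p = 1.61e-12). On fish oil the differences were -0.09 ± 0.04 for Ahsg (adjusted p = 0.16) and 0.04 ± 0.06 for Fetub (adjusted p = 0.709); all 11 fish oil arrays were below the control median of Ahsg, while Fetub was spread on both sides of it. Ahsg values lie near the top of the value range of the table (15.6), where differences can be compressed.

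Ahsg and Fetub lie next to each other on chromosome 16. In the RefSeq order of protein-coding genes on GRCm38.p6 they follow Tbccd1 and Dnajb11 and precede Hrg, Kng2, Kng1 and Eif4a2. Hrg, a plasma glycoprotein rich in histidine, fell by 0.45 ± 0.05 on fenofibrate (adjusted p = 4.61e-08), the kininogen gene Kng1 by 0.22 ± 0.04 (adjusted p = 5.47e-06), and Dnajb11, a chaperone of the endoplasmic reticulum, by 0.58 ± 0.15 (adjusted p = 0.00174). The genes at the ends of the run were named after their values were seen. At the first end Tbccd1 fell as well, by 0.24 ± 0.09 (adjusted p = 0.0334). At the other end the translation factor gene Eif4a2 departed from the run and rose by 0.32 ± 0.06 (adjusted p = 7.38e-05). Kng2 was not tested, and the probe set of Kng1 may also bind its transcripts, which are closely similar. The gene list for this cluster held 4 tested genes beside the members, of which 3 fell and 1 rose. The one that rose was Cst3 (0.26 ± 0.04, adjusted p = 1.83e-06), which is not among the neighbours given above. On fish oil only Kng1 of these genes passed, falling by 0.14 ± 0.04 (adjusted p = 0.00761).

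Lect2, a secreted chemotactic protein of hepatocytes, was the single member lowered by both treatments. It ran from 10.38 to 11.37 in controls (median 11.03), from 9.7 to 10.41 on fenofibrate (median 10.05) and from 10.04 to 10.62 on fish oil (median 10.41). Control replicate 1 was the lowest control at 10.38; the next lowest, at 10.75, was above every treated array. The fall was 0.90 ± 0.10 on fenofibrate (difference -0.9, adjusted p = 7.37e-09) and 0.61 ± 0.10 on fish oil (difference -0.61, adjusted p = 5.79e-05). Fenofibrate arrays were lower than fish oil arrays by 0.29 ± 0.10 (difference -0.29, adjusted p = 0.017). All 12 were below the fish oil median, yet the groups overlapped.

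Inhbe encodes the beta subunit of activin E, a TGF-beta family hormone that acts on fat tissue. It ran from 7.83 to 8.86 in controls (median 8.32), from 6.79 to 9.01 on fenofibrate (median 8.3) and from 6.99 to 8.97 on fish oil (median 7.82). The treated groups were wider than the controls, with SDs of 0.64 and 0.55 against 0.27. The differences from control were -0.27 ± 0.21 on fenofibrate (adjusted p = 0.326) and -0.44 ± 0.22 on fish oil (95% interval -0.89 to 0.01, adjusted p = 0.19), so neither passed.

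The spread of Inhbe on fenofibrate followed the suffix in the array labels. The 4 fenofibrate arrays with suffix A, at 7.71, 6.79, 7.21 and 7.44, were the lowest of the 12, and the single fish oil array with the suffix was at 8.00. Without the arrays with suffix A, fenofibrate exceeded fish oil by 0.56 (adjusted p = 0.0188), where with all arrays the difference was 0.17 ± 0.21 (adjusted p = 0.558). Without them the differences from control were 0.11 on fenofibrate (adjusted p = 0.675) and -0.45 on fish oil (adjusted p = 0.0729). No control array has the suffix, its part in the result was not tested, and the pattern was noticed in these values.

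**Figure D3:**
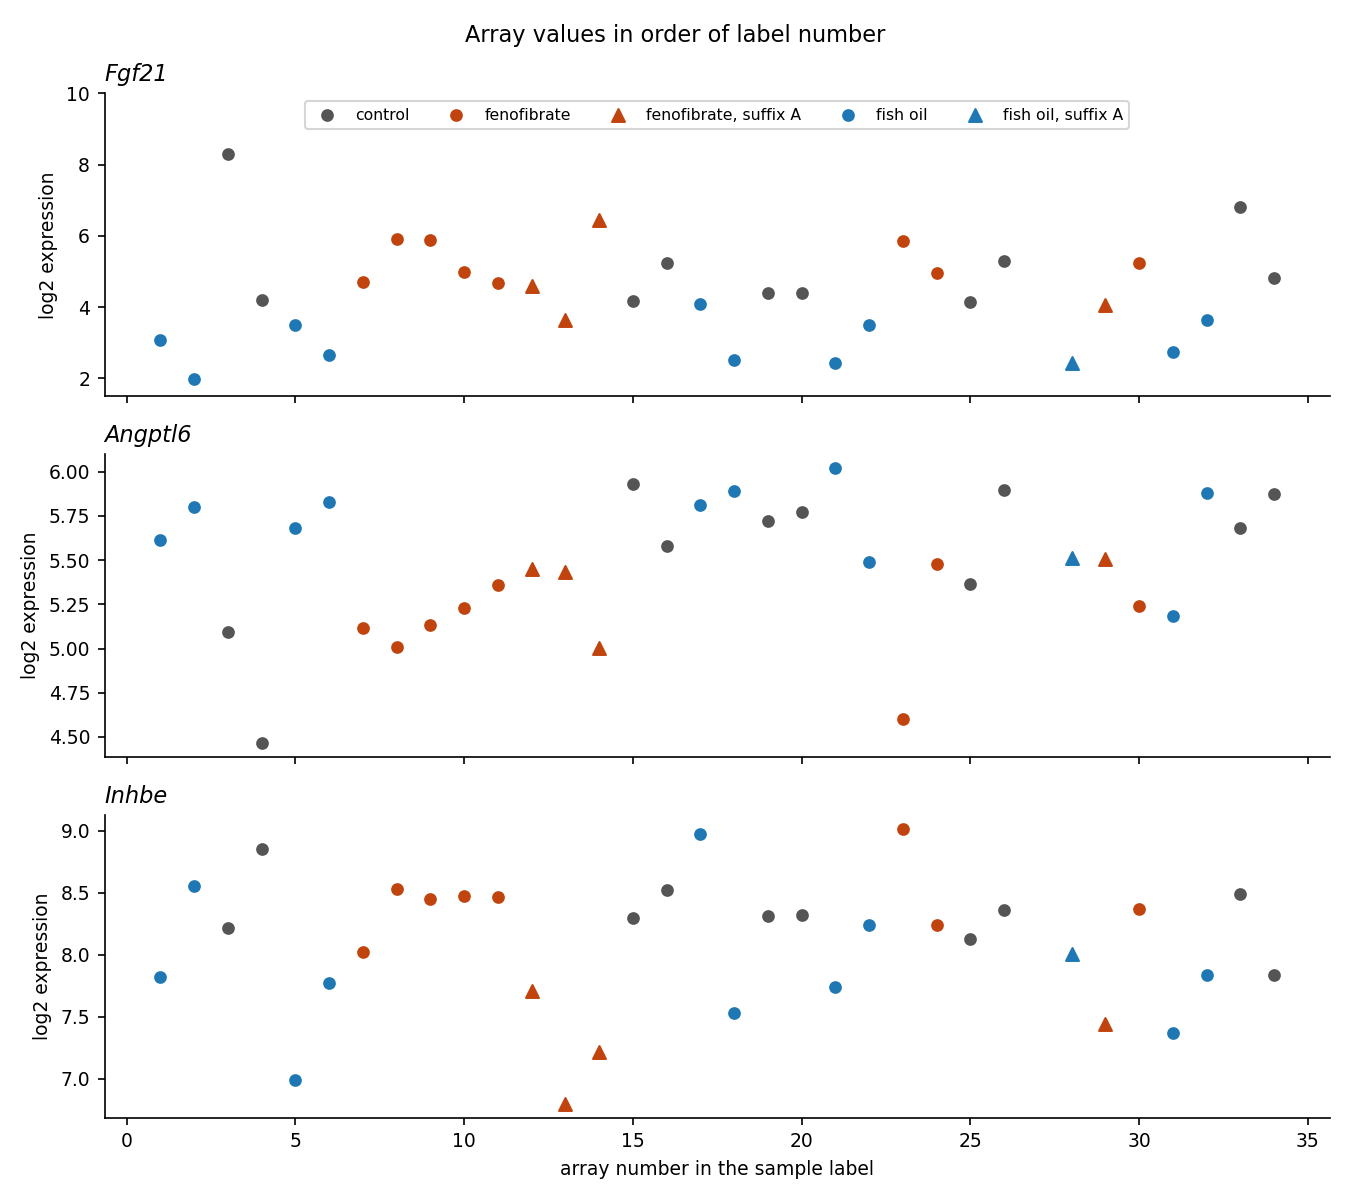
Log2 expression of Fgf21, Angptl6 and Inhbe on each array, in the order of the number in its label; colours give the diet and triangles the arrays with suffix A. Controls 1 and 9 are the highest Fgf21 values at 8.29 and 6.81, control 2 is the lowest Angptl6 value at 4.46, and the 4 fenofibrate triangles are the lowest fenofibrate values of Inhbe.

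Selenop encodes selenoprotein P, which carries selenium from the liver to brain and testis. It ran from 14.05 to 14.3 in controls (median 14.15), from 14.06 to 14.29 on fenofibrate (median 14.16) and from 14.08 to 14.21 on fish oil (median 14.15). The groups lay on top of each other. The difference was 0.00 ± 0.03 on fenofibrate (95% interval -0.07 to 0.07, adjusted p = 0.997) and -0.01 ± 0.03 on fish oil (-0.08 to 0.06, adjusted p = 0.878). Its values too lie near the top of the range of the table, where differences can be compressed.

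Relations between members within the diets were tested over 17 points, each the mean deviation from the group mean of arrays with consecutive label numbers. None of the 36 pairs passed after adjustment, and 4 had an unadjusted permutation p under 0.05. The neighbours Ahsg and Fetub had Pearson r = 0.584 (permutation p = 0.0123, adjusted p = 0.159) and Spearman rho = 0.566 (permutation p = 0.0192, adjusted p = 0.309), with r = 0.67 without the 2 farthest points and 0.347 over the 33 single arrays. Angptl6 and Lect2, on chromosomes 9 and 13, had a similar r of 0.56 (permutation p = 0.0132, adjusted p = 0.159), and 0.29 without the 2 farthest points. For Fgf21 and Fetub r was -0.481 (permutation p = 0.0498, adjusted p = 0.414). Fgf21 and Angptl6 had r = -0.579 (permutation p = 0.0131, adjusted p = 0.159) and rho = -0.331 (permutation p = 0.195, adjusted p = 0.681). That relation rests on few arrays, since r was -0.141 without the 2 farthest points and -0.214 without control replicates 1, 2 and 9.

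As a description over single arrays, the genes most like a member were those with the highest r of deviations from the group means over 33 arrays; arrays with consecutive numbers share part of these deviations. For Inhbe this was G0s2 (r = 0.747, and 0.754 without control replicates 1, 2 and 9), followed by Epha2 and Snupn. For Fetub it was Gamt (0.783, and 0.771 without those controls), with Gpld1 and Pxmp2, and for Ahsg Ip6k1 (0.686), Mtarc2 and Rbp4. For Lect2 it was Akr1c20 (0.771), with Dpp4 and Shmt1, for Selenop Mgst1 (0.765), Cyp2e1 and Alb, and for Angptl4 Dnmbp (0.782), Safb and Cdk17. The values of Fgf21 and Angptl6 leaned on the 3 controls: Tmed4, first for Fgf21 before Desi2 and Ftsj1, went from 0.791 to 0.575 without them, and Cisd1, first for Angptl6 before Cmtm8 and Gstt2, from 0.797 to 0.606. For Enho the highest value was low, 0.605 with Zdhhc13 (0.516 without those controls), followed by Adcy4 and Zfp598.

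FGF21 signals through FGF receptors with the co-receptor beta-klotho and switches on early response genes. Of 9 tested genes of this list, 5 fell on fenofibrate and 0 rose (median -0.41), and on fish oil 1 rose and 0 fell (median 0.19). Beside the counts of this and the following lists stand the shares over all genes. On fenofibrate 18.9% of all genes fell and 22% rose, and on fish oil 7% fell and 7.53% rose. No list was tested as a set. The receptor genes Fgfr4 (fell by 0.74 ± 0.12, adjusted p = 6.29e-06) and Fgfr3 (fell by 0.62 ± 0.08) fell on fenofibrate with the early response genes Egr1 (fell by 1.91 ± 0.54), Spry4 (fell by 0.75 ± 0.27) and Etv5 (fell by 0.41 ± 0.15). On fish oil, where Fgf21 itself fell, the one that rose was Etv5 (0.49 ± 0.16, adjusted p = 0.0303), and Egr1 stood at -0.16 ± 0.55. In this and the following lists, genes that complete a small count beside those of the naming rule, such as Etv5, and the co-receptor Klb were named after their values were seen. Klb did not pass on fenofibrate (0.32 ± 0.14, adjusted p = 0.0571) or fish oil (0.31 ± 0.14, adjusted p = 0.136). Without control replicates 1, 2 and 9 the list had 5 lower and 0 higher on fenofibrate, and 1 lower and 0 higher on fish oil. Those 3 controls were low over these 9 genes: their deviations from the control median had medians of -0.44, -0.42 and -0.48, against -0.12 to 0.34 in the other controls.

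Of 16 tested regulators described for Fgf21, 3 rose and 3 fell on fenofibrate, and 2 rose and 1 fell on fish oil. The nuclear receptor genes Hnf4a (fell by 0.42 ± 0.06), Rxra (fell by 0.36 ± 0.07) and Nr1h4 (fell by 0.35 ± 0.07) fell on fenofibrate, while Pparg (0.87 ± 0.15), the lipogenic factor gene Srebf1 (0.44 ± 0.17) and Nfe2l2 (0.20 ± 0.07) rose. On fish oil Creb3l3 (0.17 ± 0.05), whose product activates Fgf21 in fasting, and Mlxipl (0.23 ± 0.08), the carbohydrate sensor, rose, and Srebf1 fell by 0.58 ± 0.17. Without control replicates 1, 2 and 9, 2 regulators were higher and 7 lower on fenofibrate, and 1 was higher and 2 lower on fish oil. Of 14 genes of the integrated stress response, in which ATF4 acts, 3 rose and 4 fell on fenofibrate, and 0 rose and 2 fell on fish oil. Vldlr, a lipoprotein receptor in that list, rose by 5.62 ± 0.44 on fenofibrate, from a dim control mean of 4.7. Trib3 (0.71 ± 0.25) and the kinase gene Eif2ak4 (0.36 ± 0.10) rose as well, while Chac1 (fell by 0.60 ± 0.16), Cth (fell by 0.51 ± 0.09) and Shmt2 (fell by 0.17) fell. Atf3, Asns, Psat1, Phgdh, Mthfd2, Nupr1 and Slc7a11 of this list were too dim to be tested. Atf5 fell on both diets, by 0.45 ± 0.13 on fenofibrate and by 0.78 ± 0.13 on fish oil, where the kinase gene Eif2ak3 fell by 0.46.

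Among 14 genes around lipoprotein lipase, the enzyme that ANGPTL4 inhibits, 3 rose and 2 fell on fenofibrate, and 3 rose and 4 fell on fish oil. Lpl itself rose by 3.29 ± 0.21 on fenofibrate (adjusted p = 2.18e-14) and by 0.77 ± 0.21 on fish oil (adjusted p = 0.0118), beside Angptl4 differences of -0.20 and 0.22 that did not pass. Pcsk6, a proprotein convertase, rose by 0.27 ± 0.06 and by 0.25 ± 0.06, the anchor of the lipase Gpihbp1 by 0.17 ± 0.06 on fenofibrate and its maturation factor Lmf1 by 0.22 ± 0.07 on fish oil. The activator of the lipase, Apoc2, fell on fish oil by 0.60 ± 0.06 and did not pass on fenofibrate (-0.08 ± 0.06), and its inhibitor Apoc3 fell by 0.24 ± 0.04 on fenofibrate and by 0.14 ± 0.04 on fish oil. Apoa5 fell by 0.18 and by 0.27, and the endothelial lipase gene Lipg fell by 1.41 on fish oil. Without control replicates 1, 2 and 9 this list had 2 higher and 3 lower on fenofibrate and 2 higher and 6 lower on fish oil.

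In the family of Inhbe, 2 of 18 activin and TGF-beta genes rose on fenofibrate and 7 fell, and on fish oil 0 rose and 1 fell. The sister subunit Inhbc fell by 0.56 ± 0.10 on fenofibrate, and Inhba fell by 1.00 ± 0.10 (difference -1.0) on fenofibrate and by 0.49 ± 0.11 on fish oil, from a dim control mean of 4.95. The signal carrier Smad2 (0.35 ± 0.07) and the activin antagonist Fst (0.84 ± 0.34) rose on fenofibrate, and the co-receptor Tgfbr3 fell by 0.50 ± 0.10. Around Selenop, 5 of 22 genes of selenoproteins and their synthesis rose on fenofibrate and 4 fell, and on fish oil 1 rose and 1 fell. The lipid peroxide reductase Gpx4 rose by 0.46 ± 0.05 and the mitochondrial thioredoxin reductase Txnrd2 by 0.65 ± 0.09, with Txnrd3 (0.47 ± 0.14), Selenoi (0.39 ± 0.12) and the glutathione peroxidase Gpx1 (0.09 ± 0.03). The deiodinase Dio1 fell by 0.69 ± 0.11, Selenof by 0.24 ± 0.04, Secisbp2 by 0.23 and Scly, which recycles selenium, by 0.50. On fish oil Gpx1 rose by 0.13 ± 0.03 and Sepsecs fell by 0.17.

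The other secreted liver hormones and hepatokines were mostly lower on fenofibrate: 14 of 21 tested fell and 1 rose, with a median of -0.35. Among all genes 18.9% fell and 22% rose. Serpina12 (vaspin) fell by 4.49 ± 0.45, Fndc4 by 0.55 ± 0.07, Igf1 by 0.49 ± 0.07 and Agt, the angiotensin precursor, by 0.42 ± 0.05. The one that rose was Igfbp2 (0.34 ± 0.07, adjusted p = 0.000368). On fish oil 0 rose and 4 fell: Hamp2, a hepcidin gene, by 1.73 ± 0.23, Smoc1 by 0.48 ± 0.11, Hgf by 0.41 ± 0.14 and Mst1 by 0.18 ± 0.06. Hamp2 did not pass on fenofibrate (-0.34 ± 0.22), and probe sets of Hamp and Hamp2 may not tell these near-identical genes apart.

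**Figure D4:**
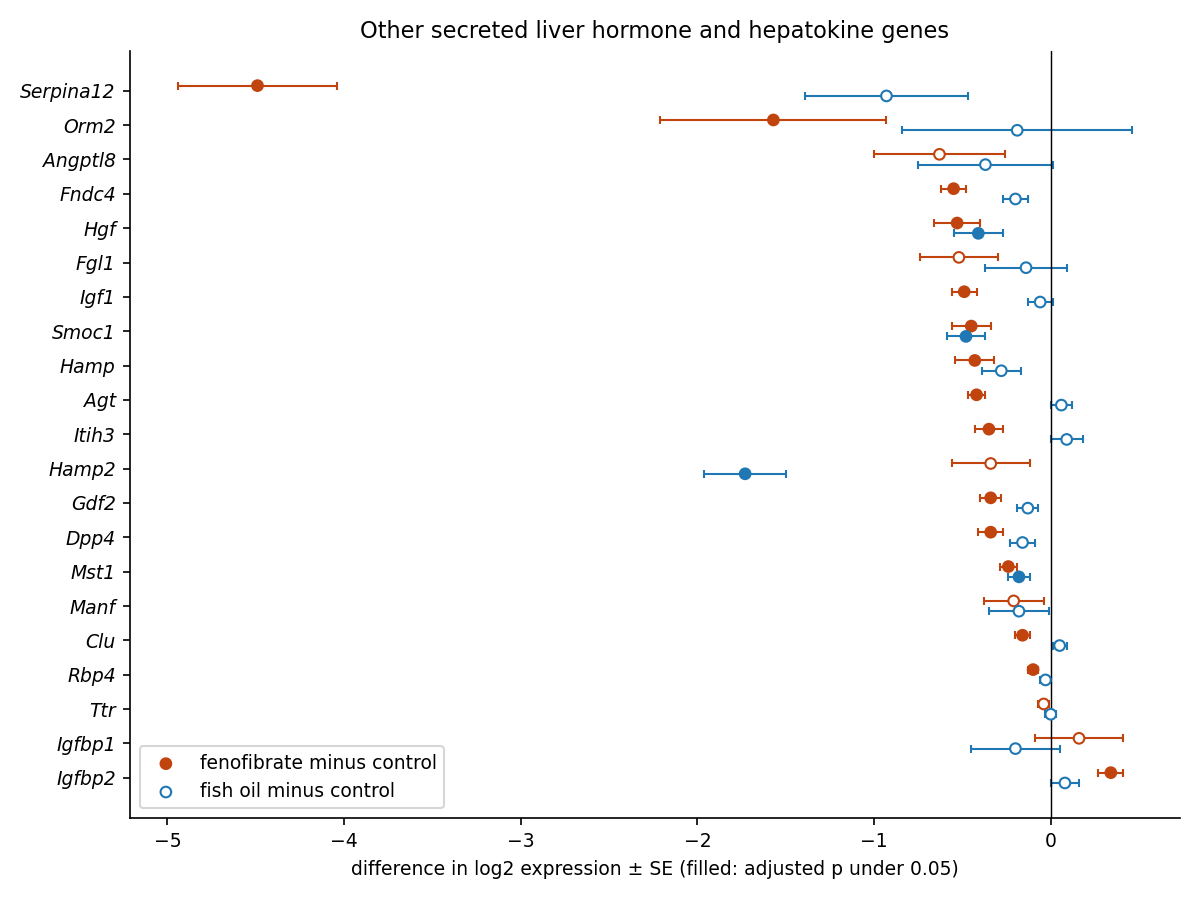
Differences from control in log2 expression ± SE for 21 other secreted liver genes; filled points passed the test at an adjusted p under 0.05. Serpina12 stands at -4.49 on fenofibrate and Hamp2 at -1.73 on fish oil, and Igfbp2 is the filled point on the higher side for fenofibrate.

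Markers of liver cells moved as well, and their part in the results for the members was not tested. Of 14 hepatocyte markers 9 fell and 1, Tdo2, rose on fenofibrate (median -0.13), with Hnf4a falling by 0.42 ± 0.06 and Cps1 by 0.45 ± 0.04. Their mean level ran from 13.02 to 13.28 on fenofibrate, from 13.16 to 13.38 in controls and from 13.21 to 13.39 on fish oil, where Apoa1, Apoc3, Tat and Cps1 fell and Tdo2 rose. On fenofibrate 3 of 14 Kupffer cell markers (Clec4f, Vsig4 and Cd163) fell and 0 rose (mean levels from 8 to 9.25, against 8.63 to 9.28 in controls), and 8 of 12 stellate cell markers fell and 1, Col3a1, rose (7.86 to 8.2, against 8.15 to 8.43). Of 14 sinusoidal endothelial markers 6 fell and 1, Lyve1, rose on fenofibrate and 5 fell and 0 rose on fish oil (Stab1, Stab2, Clec4g, Flt4 and Eng), with mean levels of 7.63 to 7.9, of 7.56 to 7.75 and, in controls, of 7.76 to 8.03. The 3 tested adipocyte markers, Pparg, Lipe and Fabp4, rose on fenofibrate, with Adipoq and Lep dim at means of 1.77 and 1.87. Few markers of other cells were bright enough to be tested: on fenofibrate Cela1 (listed as acinar) and Alas2 (listed as red cell) fell by 1.13 and 1.04, and Ighm (lymphocytes) and Anxa4 (cholangiocytes) rose by 0.67 and 0.24. Sox9, the other of 2 tested cholangiocyte markers, did not pass (-0.18 ± 0.12, adjusted p = 0.254 in limma). Without control replicates 1, 2 and 9 Ighm did not pass either (0.53). The acinar markers Cpa1, Cpb1, Ctrb1 and Cel were dim, at means of 2.19, 1.87, 1.98 and 2.36. So were Hba-a1 (2.42) and Slc4a1 (3.28) of the red cells and the other lymphocyte markers on the array (at most 3.56). Cela1, Alas2 and Ighm were thus the single tested genes of their lists. Of 23 acute phase genes 13 fell and 1, Il1rn, rose on fenofibrate (median -0.48, and -0.22 without control replicates 1, 2 and 9). Of 15 clock genes 1, Cry2, fell on fenofibrate, and without those controls 9 fell and 1 rose. On fish oil 0 passed in limma (0 at an unadjusted p under 0.05), and without those controls 5 fell and 2 rose. Those controls stood apart by their low levels of these same clock genes. Leaving them out raises the control level of these genes, so the added falls are not an independent result.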

How the data were processed

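The deposited log2 expression values, 1 per probe set, come from the authors' run of GCRMA 2.24.1 (per the submitters' processing notes), which corrects background by probe sequence and normalizes arrays by quantiles. The values ran from 0.484 to 15.6, and arrays of one diet correlated at 0.968 to 0.995. Per the labels' protocols, mice were housed 2 per cage, and the 5 µg of RNA labelled per array had an integrity number above 8. Array data have no read depth; the number of arrays limits the precision.

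Of 45037 probe sets other than controls, 34945 carry 1 gene in the platform annotation, 932 several and 9160 none named here. Probe sets at log2 of at least 4 on at least 10 arrays were kept (17162), and the brightest probe set of a gene stood for it (9005 genes). One linear model over 3 groups was fitted with limma 3.58.1 (R 4.3.3), two-sided, and adjusted by Benjamini-Hochberg over all genes. At an unadjusted p under 0.05 there were 4313, 2416 and 4208 genes for fenofibrate against control, fish oil against control and the diets against each other. On simulated data with 200 changed genes, the fit called 98% of 50 genes shifted by 1 log2 unit and 58% of 50 shifted by 0.3 for fenofibrate against control. With fish oil the share at 0.3 was 54% against control and 40% against fenofibrate. Of the simulated calls, 5.56%, 4.55% and 6.32% were on unchanged genes in the 3 comparisons, in the order above. The simulated noise was independent between arrays, and 200 of 9005 genes were changed, where 40.8% changed on fenofibrate in the data. The simulated shares therefore do not carry over to the data. Named genes were the members, up to 4 genes per list with the smallest adjusted p, and 3 genes per member with the highest r; others are said to be named after their values were seen. Members, lists and alternatives were chosen with earlier results of these data known. Alternatives changed the filter, scaling, probe set, variance model, weights, blocks and arrays, and one added after seeing the data set values under 4 to 4. Relations used 100000 permutations.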

Additional observations from a re-analysis of the deposited data

How the results depend on the processing

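The calls of Enho, Ahsg, Fetub and Lect2 on fenofibrate and of Fgf21 and Lect2 on fish oil kept their direction and their side of the threshold under every alternative in which they were measured; under the stricter filter Fgf21 was not tested, which left 1 member called on fish oil. With values under 4 set to 4, a setting added after seeing the data, the difference of Fgf21 on fish oil went from -2.22 to -1.17. Testing every probe set gave 6927 calls for fenofibrate against control and 6558 between the diets, because more features were tested. With pairs of consecutive label numbers as a random block, 845 genes changed on fish oil in place of 1308. The replicate number as a block gave 3299, 892 and 3332 calls and ended the difference of Lect2 between the diets (-0.28, adjusted p = 0.0573), leaving 6 members; no other call of a member changed. These are the numbers of the titles; the source names number control 5 and fish oil 6 differently. Arrays with one number correlated at -0.192 to 0.354 (median 0.0131, above 0.1 in 4 of 10 pairs) between fenofibrate and control, at -0.206 to 0.284 (0.17, 6 of 10) between fish oil and control and at -0.179 to 0.201 (-0.0217, 2 of 11) between the diets. Pairs of consecutive label numbers were above 0.1 in 8 of 16. Not every pair was above 0.1 under either numbering, which cannot tell whether mice of a pair shared a cage, and the labels do not say. Neither numbering was used in the main model, and both entered as alternatives. The counts for the lists and the shares over all genes come from the main model, which takes arrays as independent. Leaving out each array in turn gave 3495 to 3794 calls on fenofibrate, 1099 to 1554 on fish oil and 3319 to 3620 between the diets, with 4 to 5, 2 and 7 members. Fgf21 without control replicates 1, 2 and 9 turned from -0.10 to 0.44 on fenofibrate without a call, and the cause was not tested. Dim signal limits Fgf21 on fish oil and Enho on fenofibrate, and values near the top of the range limit Ahsg and Selenop.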
